A study of Mus musculus with 75 samples.

Results

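The 40 genes described here encode the collagens, glycoproteins and proteoglycans of the extracellular matrix of fibroblasts, together with the enzymes and the chaperone that process collagen. They were taken by symbol, from a fixed list, out of the 45706 gene entries of the deposited tables. All 40 were matched, and all 40 were among the 13665 genes that passed the low-count filter and were tested. They comprised 7 fibrillar collagens, 6 other collagens, 5 basement membrane genes, 6 elastic fibre and fibulin genes, 6 adhesive and matricellular genes, 3 small leucine-rich proteoglycans, and 7 genes of collagen-modifying enzymes and the collagen chaperone.

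Fibrillar collagens are secreted as procollagen, whose prolines and lysines are hydroxylated in the endoplasmic reticulum by the prolyl 4-hydroxylases and by lysyl hydroxylases, and whose folding is aided by the chaperone HSP47 (Serpinh1). Outside the cell, lysyl oxidases cross-link collagen and elastin. Matricellular proteins such as thrombospondin and tenascin do not build the scaffold but bind cells, growth factors and other matrix proteins. Fibroblasts are the main producers of interstitial matrix, and tumor necrosis factor (TNF) is a cytokine that activates NF-kB in them.

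RNA was sequenced from mouse embryonic fibroblasts of C57BL/6 embryos that lacked p53, c-Rel and RelA, so every group shared these deletions. RelA (p65) is a DNA-binding NF-kB protein that carries transactivation domains, TA1 and TA2, toward its C terminus. The cells carried the retroviral vector pBABE-puro, either empty (EV) or encoding RelA-WT, RelA-dTA1, RelA-dTAD, RelA-DB, RelA-dCterm, RelA-TA2_S467A, RelA-TA2_CI, RelA-TA2_CI-dTA1, RelA-TA2_CI_S467A or RelA-TA2_CI_S467A-dTA1, as the labels name them. After a night in 0.5% serum they were sampled before TNF (0 h) and after 0.5, 1, 3 and 8 h of 10 ng/ml TNF. EV, RelA-dTAD, RelA-dTA1 and RelA-WT had 2 libraries at each time, 1 from each of 2 separately deposited sets, and the other 7 constructs had 1. The labels do not say whether a construct's cells were a clone or a pool, nor whether the 2 libraries came from separate cultures. The tests therefore rest on the spread between libraries, which may be technical. No cells were sampled at 8 h without TNF, so time in low serum and time in TNF cannot be told apart. Levels are per culture, and fewer cells of a type and less RNA per cell cannot be told apart.

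Set 1, with 30 libraries, was sequenced to totals between 4422396 and 6915919 assigned reads, and set 2, with 45, to totals between 10440202 and 22908738. Rela stood at 15.6 to 16.7 CPM (the usual rate of a gene's reads in a library, whose total was scaled by edgeR's TMM method) in EV at 0 h and at 531 to 1800 CPM in the 10 RelA constructs. At 8 h it stood at 25.2 to 30.4 CPM in EV and at 1480 to 6660 CPM in the RelA constructs. At 0 h RelA-WT held 1150 and 1470 CPM (set 1 and set 2), RelA-dTA1 847 and 1450 CPM and RelA-dTAD 1120 and 1800 CPM. At 8 h these were 1480 and 1770 CPM in RelA-WT, 1780 and 2590 CPM in RelA-dTA1 and 3880 and 6660 CPM in RelA-dTAD. The part of this rise, and of its difference between constructs, in the changes at 8 h was not tested. The 12 fibroblast markers summed to 4730 to 6410 CPM over the 75 libraries, against 1.62 to 5.69 for 5 macrophage markers, 16.2 to 45.2 for 4 endothelial, 2.42 to 13.5 for 4 epithelial and 1.57 to 10.0 for 4 muscle markers. Of these markers, Adgre1, Tie1, Myod1 and Myog had no read in any EV or RelA-WT library at 0 or 8 h. Other markers of their lists had reads there, and every marker had reads in some of the 75 libraries.

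Together the 40 genes took 6.66% to 9.23% of all counted reads in a library. Per kilobase of exon, unstimulated RelA-WT cells held most Col1a1, the alpha 1 chain of type I collagen, at 1950 ± 170 CPM per kilobase (SD, n = 2). Sparc, a collagen-binding matricellular protein, followed at 1090 ± 105, then Col1a2 at 887 ± 133, Col3a1 at 793 ± 82.4, Serpinh1 at 695 ± 207 and the proteoglycan gene Bgn at 590 ± 1.56. From Sparc down to Bgn, neighbours in this order differed by less than the sum of their SDs. At the other end stood Eln (elastin) at 7.0 ± 2.19, Col18a1 at 5.52 ± 0.751 and Col15a1 at 1.52 ± 0.168. Col15a1 had as few as 30 reads in a library, the fewest of the 40 genes, so read counting limits its precision most. Relative to the mean, the spread between the 2 libraries was larger for other genes, such as Dcn at 94.2 ± 46.4.

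**Figure D1:**
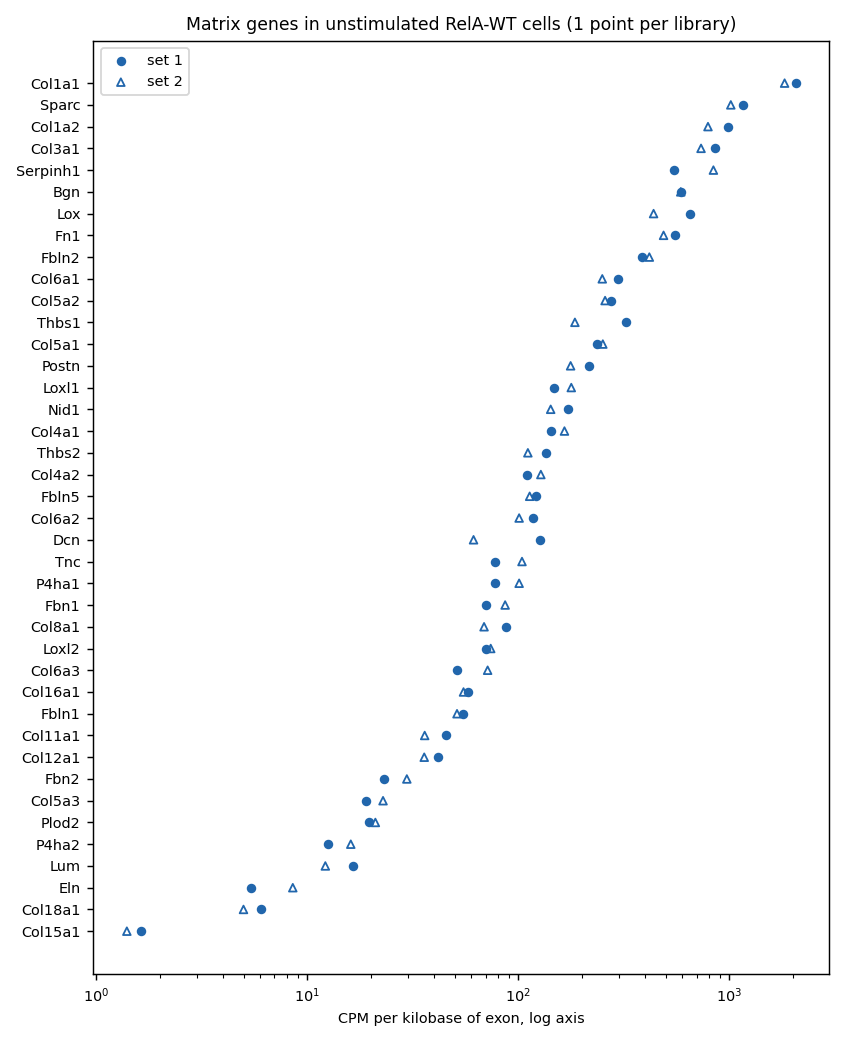
Level of each of the 40 matrix genes in the 2 unstimulated RelA-WT libraries, in CPM per kilobase of exon on a log axis. Circles are set 1 and triangles set 2. Col1a1 is highest, at 1950 on average, and Col15a1 lowest, at 1.52.

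Without TNF, at most 1 of the 40 matrix genes was called between RelA-WT and EV, RelA-dTA1 or RelA-dTAD. Of the 40 genes, 0 differed in level at 0 h between EV and RelA-WT at an adjusted p under 0.05 (edgeR's quasi-likelihood test, Benjamini-Hochberg adjustment over all genes tested), where 0.563% of all genes tested did. The count was also 0 for RelA-dTA1 and for RelA-dTAD against RelA-WT, where 0% and 0.0293% of all genes were called (0.0293% and 0.0659%, and 0 of the 40, with the set as a block). Unadjusted p was under 0.05 for 1 gene between EV and RelA-WT, for 3 between RelA-dTA1 and RelA-WT and for 0 between RelA-dTAD and RelA-WT. DESeq2 called 0 in each. With the set as a block, unadjusted p was under 0.05 for 10, 13 and 4 of the 40 genes, in the same order. A fit with the set as a block called 1 gene higher in EV than in RelA-WT, where 1.13% of all genes differed, namely Eln. It stood at 64.18 and 118.7 CPM in EV and at 44.1 and 69.22 CPM in RelA-WT (set 1 and set 2).

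After 8 h of TNF between 9 and 13 of the 40 matrix genes changed in each of the 4 constructs, and Col1a1, Col1a2 and Col3a1, the chains of type I and III collagen, were not among them. In EV 8 of the 40 genes rose and 3 fell, in RelA-WT 5 rose and 4 fell, in RelA-dTA1 6 rose and 5 fell, and in RelA-dTAD 10 rose and 3 fell. Over all genes tested 25.6% rose and 23.1% fell in EV, 15.8% and 11.6% in RelA-WT, 19.4% and 15.3% in RelA-dTA1, and 24.4% and 22.5% in RelA-dTAD. Without the set as a block, the called share of the 40 genes was thus below that of all genes in each construct. The shares were 27.5% against 48.7% in EV, 32.5% against 46.9% in RelA-dTAD, 27.5% against 34.6% in RelA-dTA1 and 22.5% against 27.4% in RelA-WT. The median log2 change of the 40 genes was 0.157 in EV, 0.127 in RelA-WT, 0.100 in RelA-dTA1 and 0.118 in RelA-dTAD, beside medians of -0.015, -0.032, -0.019 and -0.018 over all genes. Blocked by set, the genes that rose and fell numbered 16 and 6 in EV, 13 and 7 in RelA-WT, 14 and 9 in RelA-dTA1, and 16 and 6 in RelA-dTAD, where 62.6%, 44.8%, 52.2% and 63.4% of all genes were called. The called share of the 40 genes was then below that of all genes in EV and RelA-dTAD (55.0% in each). It was above that of all genes in RelA-WT (50.0%) and RelA-dTA1 (57.5%). Scaling by library totals alone moved the median change of all genes to -0.253 in EV, -0.161 in RelA-WT, -0.191 in RelA-dTA1 and -0.247 in RelA-dTAD. On that scale 4 genes rose and 11 fell in EV, where 17.3% and 34.7% of all genes did. The counts were 5 and 5 in RelA-WT (all genes 11.2% and 18.7%), 5 and 6 in RelA-dTA1 (12.9% and 25.4%), and 6 and 8 in RelA-dTAD (16.5% and 34.6%).

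In all, 19 of the 40 genes were called at 8 h in at least 1 of the 4 constructs, and 0 of them in opposite directions. Only Tnc and P4ha2 rose in all 4. With the block 8 genes did, namely Tnc, P4ha2, P4ha1, Fbn1, Col4a1, Col5a3, Loxl1 and Loxl2, and Col11a1, Col16a1 and Thbs2 fell in all 4. The 21 genes called in none were Col1a1, Col1a2, Col3a1, Col5a2, Col6a1, Col6a2, Col6a3, Col12a1, Col4a1, Col4a2, Col15a1, Eln, Fbn2, Sparc, Postn, Dcn, Lum, Lox, P4ha1, Plod2 and Serpinh1. Blocked by set, 14 of these 21 were called in at least 1 construct, and Col1a1, Col3a1, Col6a2, Col6a3, Col12a1, Lum and Serpinh1 were not. Of the 44 calls over the 4 constructs, 16 held with either library left out: Tnc in all 4, Thbs1, Loxl2, Fbln1 and Col16a1 in EV and in RelA-dTAD, P4ha2 in RelA-WT and RelA-dTA1, and Col5a3 and Col8a1 in RelA-dTA1. All 44 had the same sign in both sets. Here and below, leaving out a library means leaving out that construct's libraries of 1 set at all times. Those fits had no block for the set, so the spread between sets stayed in their tests.

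**Figure D2:**
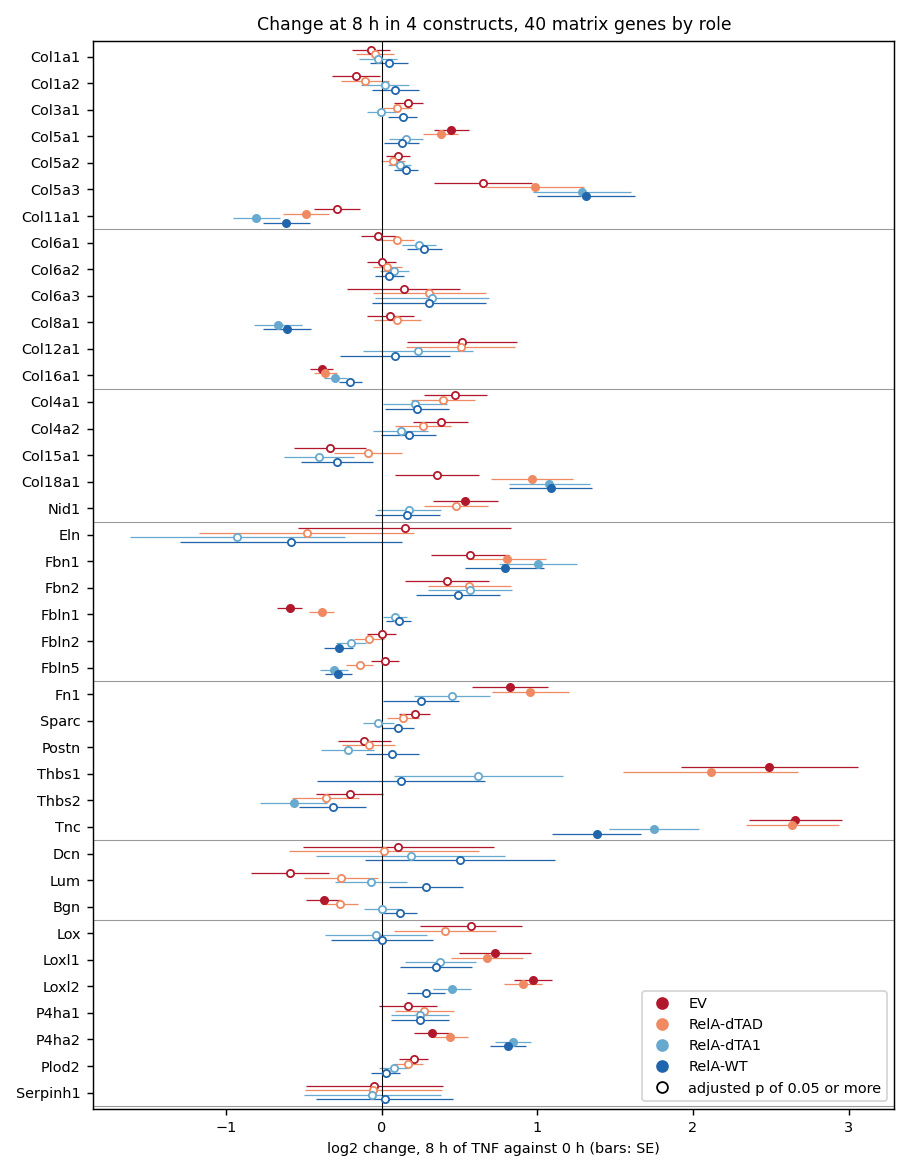
Fitted log2 change at 8 h of TNF against 0 h for each of the 40 genes, ordered by role, with 1 row of points per gene and bars of 1 SE. Filled points have an adjusted p under 0.05 and colours mark EV, RelA-dTAD, RelA-dTA1 and RelA-WT. Thbs1 and Tnc lie farthest to the right, above 2 in EV and RelA-dTAD.

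The question that the design asks of these genes is whether their response to TNF differed with the RelA the cells carried. The 8 h response of EV was larger than that of RelA-WT for Thbs1, Tnc, Loxl2 and Col8a1, and lower for P4ha2, Bgn and Fbln1 (7 of 40 genes, or 17.5%, where 17.6% of all genes tested differed, 9.67% higher and 7.9% lower). The differences in log2 change were 2.36 ± 0.77 (SE) for Thbs1 (adjusted p = 0.035), 1.28 ± 0.40 for Tnc (0.0275), 0.68 ± 0.17 for Loxl2 (0.0063) and 0.67 ± 0.22 for Col8a1 (0.0335). They were -0.49 ± 0.17 for P4ha2 (0.042), -0.49 ± 0.16 for Bgn (0.0366) and -0.70 ± 0.11 for Fbln1 (9.12e-05), all by edgeR's quasi-likelihood test. With the set as a block, 12 genes were higher and 6 lower, where 33.5% of all genes differed, and all 7 kept their call. The genes added by the block were Col5a1, Col4a1, Nid1, Eln, Fbln2, Fbln5, Loxl1 and Lox, higher in EV, and Col1a2, Col5a3 and Col6a1, lower. The omissions that follow were fitted without the block, so the spread between sets stayed in their tests. The Thbs1 difference was 2.26 to 2.45 in them. With 1 of the 4 EV or RelA-WT replicates left out, between 0 and 1 gene was called higher and between 1 and 2 lower. Of the 7 genes, Fbln1 alone kept its call under each of these 4 omissions, and the adjusted p of Thbs1 went up to between 0.113 and 0.177.

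RelA-dTAD differed from RelA-WT in the same directions at 8 h for Tnc (1.26 ± 0.40), Col8a1 (0.71 ± 0.22), Loxl2 (0.62 ± 0.17) and Fbln1 (-0.49 ± 0.11), so 10.0% of the 40 genes were called where 12.2% of all genes tested were (6.45% higher and 5.8% lower). These 4 contrasts share the RelA-WT libraries with those of EV. The Thbs1 difference was 1.99 ± 0.77 with an adjusted p of 0.098, and 2.03 ± 0.14 with an adjusted p of 1.29e-11 when the set was a block. With the block 8 genes were higher and 3 lower, where 27.8% of all genes differed; those added were Thbs1, Fn1, Nid1, Lox and Loxl1, higher, and Bgn and P4ha2, lower. None of the 4 calls made without it survived every omission of 1 replicate. RelA-dTA1 differed from RelA-WT in 0 of the 40 genes, with 0 at an unadjusted p under 0.05, 0 by DESeq2 and 0 with the block, and 0 of all 13665 genes differed in that contrast (0.0585% with the block). RelA-dTAD differed from EV in 0 of the 40 genes as well, again with 0 at an unadjusted p under 0.05 and 0 by DESeq2. There 0.00732% of all genes differed (0.0951% with the block). With the block, unadjusted p was under 0.05 for 2 of the 40 genes between RelA-dTA1 and RelA-WT. It was for 4 between RelA-dTAD and EV, with 0 called.

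**Figure D3:**
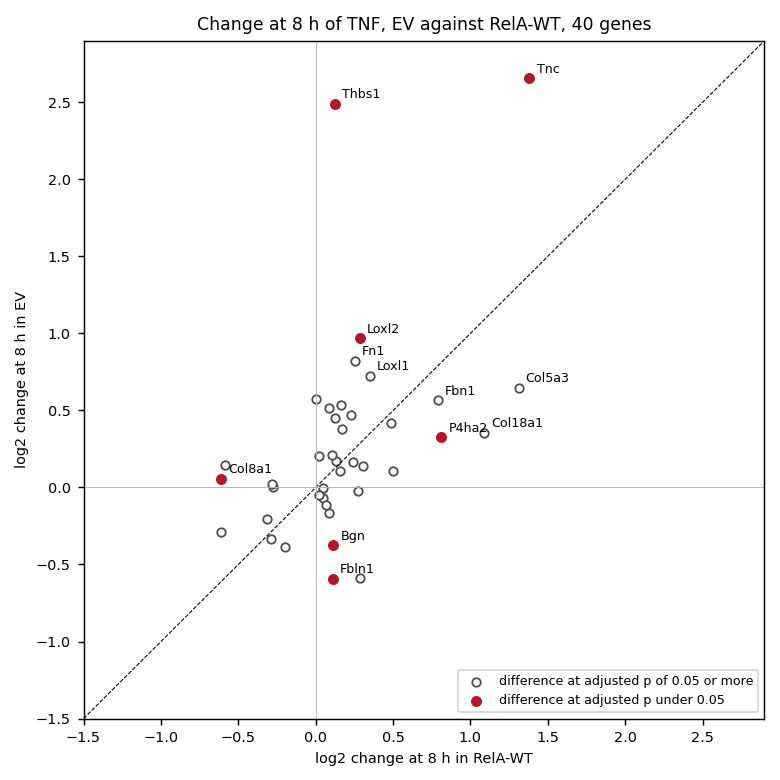
Log2 change at 8 h of TNF in EV (vertical axis) against that in RelA-WT (horizontal axis), 1 point per gene, with the line of equal change dashed. Filled points mark the 7 genes whose response differed between EV and RelA-WT at an adjusted p under 0.05. Thbs1 lies near 0 in RelA-WT and near 2.5 in EV.

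For the genes whose response differed between EV and RelA-WT, the 250 bases before RefSeq's start of the gene are shown, to print the sequence next to that start. The windows are RefSeq's for GRCm38.p6, an mm10 assembly, read 5′ to 3′ on the strand of the gene, and capitals mark a match to a searched motif. Tnc lies at chr4:64047016-64047265 (minus strand), Col8a1 at chr16:57754738-57754987 (minus), Fbln1 at chr15:85205699-85205948 (plus), Bgn at chrX:73483351-73483600 (plus) and P4ha2 at chr11:54100674-54100923 (plus). RefSeq's start of P4ha2 lies 829 bases inside the deposited entry of the gene, so this window is within that entry. Thbs1 and Loxl2 are named only.
Tnc: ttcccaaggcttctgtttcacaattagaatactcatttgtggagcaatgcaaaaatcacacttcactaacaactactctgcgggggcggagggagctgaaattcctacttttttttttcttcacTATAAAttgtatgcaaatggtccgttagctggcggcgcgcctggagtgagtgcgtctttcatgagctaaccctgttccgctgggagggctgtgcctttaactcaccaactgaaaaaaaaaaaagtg
Col8a1: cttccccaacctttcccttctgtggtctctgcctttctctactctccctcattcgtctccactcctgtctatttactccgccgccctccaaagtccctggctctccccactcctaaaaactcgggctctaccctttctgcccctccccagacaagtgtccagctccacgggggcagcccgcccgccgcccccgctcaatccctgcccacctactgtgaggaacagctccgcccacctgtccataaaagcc
Fbln1: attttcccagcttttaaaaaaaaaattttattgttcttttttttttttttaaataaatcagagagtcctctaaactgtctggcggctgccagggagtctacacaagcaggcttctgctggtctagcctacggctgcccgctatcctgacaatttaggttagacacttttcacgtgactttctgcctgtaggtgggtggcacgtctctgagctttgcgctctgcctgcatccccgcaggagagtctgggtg
Bgn: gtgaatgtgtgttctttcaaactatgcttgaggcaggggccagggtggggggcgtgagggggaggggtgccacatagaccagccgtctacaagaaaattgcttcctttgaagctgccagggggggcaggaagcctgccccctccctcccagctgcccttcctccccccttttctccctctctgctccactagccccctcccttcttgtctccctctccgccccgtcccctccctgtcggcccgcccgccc
P4ha2: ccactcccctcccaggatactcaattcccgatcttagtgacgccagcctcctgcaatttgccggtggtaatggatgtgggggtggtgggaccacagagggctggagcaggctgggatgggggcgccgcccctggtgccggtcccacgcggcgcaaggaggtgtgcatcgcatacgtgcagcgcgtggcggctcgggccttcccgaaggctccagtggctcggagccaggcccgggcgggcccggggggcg

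Of these 5 windows, Tnc alone held a match, to TATAAA from 126 to 121 bases before the start. Windows were found for 27 of the 40 genes. Both strands were searched for the NF-kB consensus, which was in 2 of the 27 (Thbs2 and Serpinh1) and in 3.92% of all 32536 promoters. The AP-1 motif TGANTCA was in 1 of the 27 (Col6a1) and in 6.73% of all promoters, the CArG box was in 0 of the 27 and 1.48% of all, and TATAAA was in 4 of the 27 (Col3a1, Postn, Thbs2 and Tnc) and 12.3% of all. A match is a run of letters in this window and not a measured binding site.

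The adhesive and matricellular genes held the largest rises. Thbs1 (chr2:118111876-118127133) encodes thrombospondin 1, a secreted glycoprotein that can activate latent TGF-beta. It stood at 1959 CPM in set 1 and 1091 CPM in set 2 in unstimulated EV cells, and at 10250 and 6422 CPM after 8 h. In RelA-WT it stood at 1965 and 1127 CPM at 0 h and at 2227 and 1139 CPM at 8 h. The 8 h libraries of EV thus lay above every 0 h library and above both 8 h libraries of RelA-WT, while those of RelA-WT overlapped with their 0 h levels. RelA-dTAD went from 2251 and 1197 to 9292 and 5425 CPM. RelA-dTA1 stood between, at 1956 and 1162 CPM before and 3169 and 1580 CPM at 8 h. The log2 changes of Thbs1 were 2.49 ± 0.57 in EV (adjusted p = 0.000821), 2.12 ± 0.56 in RelA-dTAD (0.0033), 0.62 ± 0.54 in RelA-dTA1 (0.411) and 0.13 ± 0.54 in RelA-WT (0.898). Set 1 held more Thbs1 than set 2 at each time in all 4 constructs, and with the set as a block RelA-dTA1 was called as well (0.58 ± 0.10, adjusted p = 1.23e-05).

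Thbs1 was also the matrix gene that moved before 3 h. In EV it stood at 3275 and 1817 CPM at 0.5 h and at 3834 and 1918 CPM at 1 h, then at 2508 and 1427 CPM at 3 h. In RelA-WT the levels were 2559 and 2019 CPM at 0.5 h, 3023 and 1770 CPM at 1 h and 1215 and 778.6 CPM at 3 h, the last below the 0 h level in each set. At 0.5 and 1 h 0 of the 40 genes were called in any of the 4 constructs (0 by DESeq2, and at an unadjusted p under 0.05 0 except for Col3a1 in RelA-dTAD at 0.5 h), where 0.402%, 0.812%, 0.629% and 0.439% of all genes were at 0.5 h in EV, RelA-WT, RelA-dTA1 and then RelA-dTAD, and 0.827%, 3.24%, 1.62% and 0.549% at 1 h. Blocked by set, Thbs1 rose in each construct at both times and no other of the 40 genes was called, where the shares of all genes were 0.783%, 1.3%, 1.18% and 0.929%, then 2.18%, 6.8%, 4.68% and 1.9%. Its blocked log2 changes were 0.64 to 0.75 at 0.5 h and 0.63 to 0.91 at 1 h. At 3 h the blocked log2 change was -0.61 ± 0.10 in RelA-WT (adjusted p = 1.73e-05) and 0.38 ± 0.10 in EV (0.0081), and the difference between EV and RelA-WT was 0.98 ± 0.14 (7.59e-06), against 1.00 ± 0.77 and 0.847 without the block.

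Tnc (chr4:63959785-64047015) encodes tenascin-C, a hexameric glycoprotein of remodelling and inflamed matrix. It stood at 567.9 and 819.8 CPM in EV at 0 h and at 3921 and 4622 CPM at 8 h. RelA-dTAD went from 617.0 and 881.1 to 4314 and 4882 CPM, RelA-dTA1 from 634.2 and 834.6 to 2337 and 2585 CPM, and RelA-WT from 606.3 and 809.9 to 1742 and 1951 CPM. No 8 h library overlapped a 0 h library in any of the 4 constructs, and the order of the constructs was the same in both sets, with RelA-WT lowest and RelA-dTAD highest. The log2 changes were 2.66 ± 0.30 in EV (adjusted p = 9.34e-08), 2.64 ± 0.30 in RelA-dTAD (1.22e-07), 1.75 ± 0.29 in RelA-dTA1 (4.61e-05) and 1.38 ± 0.29 in RelA-WT (0.000775). The order was another at 3 h, when Tnc had risen in RelA-WT (1160 and 1563 CPM, 0.95 ± 0.28, adjusted p = 0.0222) and in RelA-dTA1 (1218 and 1469 CPM, 0.89 ± 0.28, 0.0362). EV held 942.6 and 1128 CPM then and RelA-dTAD 871.1 and 1190 CPM, both uncalled without the block.

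Fn1 (chr1:71585520-71653200) encodes fibronectin, the main adhesive glycoprotein of fibroblast matrix. It stood at 6736 and 6891 CPM in EV at 0 h and at 12780 and 10700 CPM at 8 h, and in RelA-dTAD at 7530 and 6210 CPM and then 15530 and 10700 CPM. It rose by 0.82 ± 0.24 on the log2 scale in EV (adjusted p = 0.0074) and by 0.95 ± 0.25 in RelA-dTAD (0.0025). In RelA-WT it stood at 6440 and 5706 CPM at 0 h and 8353 and 6081 CPM at 8 h, ranges that overlap, and the change of 0.25 ± 0.24 was not called. In RelA-dTA1 Fn1 was called higher with the set as a block alone (0.45 ± 0.16, adjusted p = 0.0222). Without replicate 1 the Fn1 change was 0.66 in EV with an adjusted p of 0.153, and 0.80 in RelA-dTAD with one of 0.0861. Thbs1, Tnc and Fn1 together took 0.978% and 0.917% of all reads in EV at 0 h and 2.42% and 2.01% at 8 h, against 0.945% and 0.796%, then 1.16% and 0.883%, in RelA-WT. The other 37 genes took 7.33% and 7.17% in EV at 0 h and 6.81% and 6.08% at 8 h.

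Sparc, Postn and Thbs2 are the remaining adhesive genes. Sparc stood at 4212 and 3876 CPM in EV at 0 h and 4952 and 4171 CPM at 8 h, and at 3926 and 3423, then 4177 and 3727 CPM, in RelA-WT, and was called in none of the 4 constructs without the block. Postn (periostin) was not called either, with log2 changes from -0.22 in RelA-dTA1 to 0.07 in RelA-WT. Blocked by set, Sparc rose in EV (0.21 ± 0.07, adjusted p = 0.0075) and Postn fell in RelA-dTA1 (-0.21 ± 0.09, 0.039). Thbs2, which encodes thrombospondin 2, fell in RelA-dTA1, from 974.8 and 805.4 to 663.2 and 533.4 CPM (-0.56 ± 0.21, adjusted p = 0.0444). This call was lost with either library left out (0.252 to 0.27). The thrombospondin 1 and 2 genes thus had log2 changes of opposite sign in all 4 constructs, and with the set as a block Thbs2 was called lower in each of them.

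**Figure D4:**
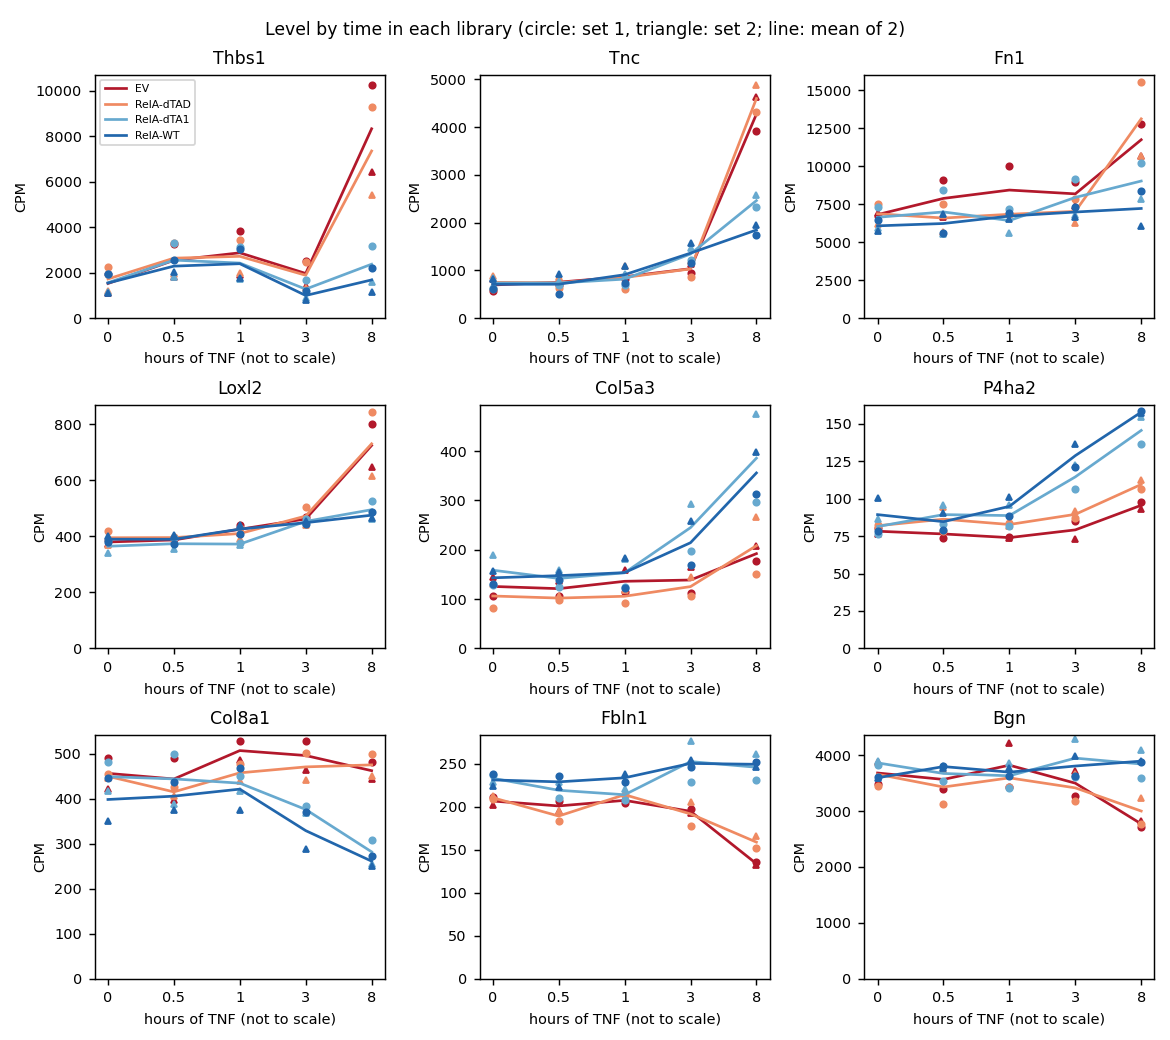
Level in CPM of 9 matrix genes before TNF and after 0.5, 1, 3 and 8 h, with the times evenly spaced. Circles are libraries of set 1, triangles libraries of set 2, and lines the means of 2 libraries in EV, RelA-dTAD, RelA-dTA1 and RelA-WT. Thbs1 reaches 10250 and 6422 CPM in EV at 8 h and 2227 and 1139 CPM in RelA-WT. Col8a1 falls in RelA-WT and RelA-dTA1, and Fbln1 falls in EV and RelA-dTAD.

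The chains of the major fibrillar collagens kept nearly level values. Col1a1 (chr11:94936224-94953042) stood at 14920 and 14950 CPM in EV at 0 h and 15420 and 12330 CPM at 8 h, and at 13590 and 12000, then 14330 and 12130 CPM, in RelA-WT. Col1a2 (chr6:4504814-4541543), the partner chain of type I collagen, stood at 12280 and 10900, then 11430 and 8682 CPM, in EV and at 11910 and 9622, then 12480 and 10390 CPM, in RelA-WT. Col3a1 (chr1:45311538-45349706), the chain of type III collagen, stood at 7908 and 7958, then 9055 and 8342 CPM, in EV and at 8360 and 7215, then 8836 and 8260 CPM, in RelA-WT. The 0 and 8 h ranges overlapped in RelA-WT for all 3 genes and in EV for Col1a1 and Col1a2. Over all 75 libraries the lowest, median and highest levels were 10580, 13840 and 17280 CPM for Col1a1, 8682, 11400 and 13800 CPM for Col1a2, and 5966, 7992 and 9669 CPM for Col3a1. The log2 changes of these 3 genes at 8 h lay between -0.17 and 0.17 over the 4 constructs and none was called, although Col1a2 in EV was called lower with the set as a block (adjusted p = 0.0165).

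Among the minor fibrillar chains, Col5a3 rose and Col11a1 fell. Col5a3 (chr9:20770050-20815067), the alpha 3 chain of type V collagen, stood at 130.1 and 155.8 CPM in RelA-WT at 0 h, 169.7 and 258.5 CPM at 3 h and 313.3 and 397.8 CPM at 8 h. In EV it stood at 105.8 and 145.2 CPM at 0 h and 177.1 and 206.8 CPM at 8 h. The 8 h libraries lay above the 0 h libraries in both, and those of EV lay below those of RelA-WT. The log2 change was 1.31 ± 0.32 in RelA-WT (adjusted p = 0.0029), 1.28 ± 0.32 in RelA-dTA1 (0.00258), 0.99 ± 0.32 in RelA-dTAD (0.0126) and 0.65 ± 0.32 in EV (0.0928). The difference between EV and RelA-WT, -0.66 ± 0.44, was not called (0.35) but was with the set as a block (0.00263). The Col5a3 call in RelA-WT was lost with either library left out (0.065 to 0.0772).

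Col11a1 (chr3:114030540-114220718), a chain of type XI collagen, which nucleates thin fibrils, stood at 576.3 and 458.7 CPM in RelA-WT at 0 h and 368.6 and 307.5 CPM at 8 h. It fell by 0.61 ± 0.15 on the log2 scale there (adjusted p = 0.00315), by 0.81 ± 0.15 in RelA-dTA1 (0.000176) and by 0.48 ± 0.15 in RelA-dTAD (0.00967). In EV it stood at 636.3 and 565.9, then 544.7 and 415.9 CPM, and the change of -0.29 ± 0.15 was not called (0.116). Without replicate 1 the Col11a1 falls in RelA-WT and RelA-dTA1 were not called (0.0927 and 0.0737), nor was that in RelA-dTAD with either library left out (0.0992 to 0.143). Col5a1, another type V chain, rose in EV by 0.45 ± 0.11 (0.00171) and in RelA-dTAD by 0.38 ± 0.11 (0.00691), with 2133 and 2429, then 3164 and 2898 CPM, in EV. Col5a1 was not called without replicate 1 (0.23 in EV, 0.197 in RelA-dTAD) or under library totals alone (0.102 and 0.255).

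Of the other collagens, Col8a1 (chr16:57624258-57754737) showed a fall that EV lacked. It encodes the alpha 1 chain of the short-chain, network-forming type VIII collagen. In RelA-WT it stood at 445.4 and 351.8 CPM at 0 h, 370.5 and 288.0 CPM at 3 h and 272.2 and 250.4 CPM at 8 h, and in RelA-dTA1 at 481.5 and 417.4, then 309.1 and 255.0 CPM at 8 h. In EV it stood at 490.6 and 422.9 CPM at 0 h and 481.6 and 443.8 CPM at 8 h, and in RelA-dTAD at 454.4 and 446.0, then 499.5 and 451.8 CPM. The 8 h libraries of RelA-WT lay below all 0 h libraries of the 4 constructs, whereas those of EV and RelA-dTAD lay within or above their 0 h ranges. The fall was 0.61 ± 0.15 in RelA-WT (adjusted p = 0.00407) and 0.67 ± 0.15 in RelA-dTA1 (0.00152), and the changes in EV and RelA-dTAD were 0.06 ± 0.15 and 0.10 ± 0.15. Without replicate 1 of RelA-WT the change there was -0.49, with an adjusted p of 0.114.

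Col16a1 (chr4:130047840-130099283), a fibril-associated collagen, fell in EV from 392.1 and 415.6 to 309.7 and 292.4 CPM (-0.39 ± 0.08, adjusted p = 0.000173), in RelA-dTAD by 0.36 ± 0.08 (0.000375) and in RelA-dTA1 by 0.30 ± 0.08 (0.00356). In RelA-WT it stood at 390.2 and 371.6, then 335.4 and 327.6 CPM (-0.20 ± 0.08, 0.0511), and was called with the set as a block (0.0156). In RelA-dTA1 the call was lost with either library left out (0.0683 to 0.104). The 3 chains of the beaded-filament collagen VI, Col6a1, Col6a2 and Col6a3, and Col12a1 were called in none of the 4 constructs. Their log2 changes lay between -0.022 for Col6a1 and 0.515 for Col12a1, both in EV. With the set as a block, Col6a1 rose in RelA-WT (0.276, adjusted p = 0.00111) and in RelA-dTA1 (0.245, 0.00261), and Col5a2, a type V chain, rose in RelA-WT (0.155, 0.0227).

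Among the basement membrane genes, Col18a1 (chr10:77052178-77166548) encodes the collagen whose C-terminal fragment is endostatin. It stood at 42.5 and 35.04 CPM in RelA-WT at 0 h and 81.47 and 82.51 CPM at 8 h (1.09 ± 0.27, adjusted p = 0.00334), and in EV at 34.86 and 42.47, then 42.3 and 53.84 CPM (0.36 ± 0.27, 0.285). It rose in RelA-dTA1 by 1.08 ± 0.26 (0.00245) and in RelA-dTAD by 0.97 ± 0.26 (0.00414), where the sets differed at 8 h, with 41.6 CPM in set 1 and 92.55 CPM in set 2. Without replicate 2 the change was 0.81 in RelA-dTA1 (0.116) and only 0.48 in RelA-dTAD (0.285), while in RelA-WT the call was lost with either library left out (0.0737 to 0.139). Col18a1 overlaps Slc19a1 on the opposite strand, which had 49.2% as many reads over all libraries, and whether reads were counted by strand is not given in the sources used here, so these values are uncertain. Slc19a1 itself rose most in EV, by 1.71 ± 0.14, and by 0.61 ± 0.14 in RelA-WT.

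Nid1 (chr13:13437602-13512275) encodes nidogen 1, which links laminin to type IV collagen. It rose in EV from 1053 and 975.9 to 1582 and 1285 CPM (0.54 ± 0.21, adjusted p = 0.035) and stood at 1039 and 861.8, then 1228 and 899.4 CPM, in RelA-WT (0.16 ± 0.21, 0.61). The Nid1 call in EV was lost with either library left out (0.13 to 0.291). Blocked by set, Nid1 rose in RelA-dTAD (0.47 ± 0.07, adjusted p = 7.46e-07) and RelA-dTA1 (0.18 ± 0.07, 0.0377) as well. Col4a1 and Col4a2, the 2 chains of the main type IV collagen, are neighbours on chromosome 8 on opposite strands and overlap at their starts by 22 bases. They had log2 changes of 0.47 ± 0.20 and 0.38 ± 0.18 in EV (0.0581 and 0.0823), and both were called with the set as a block (2.47e-07 and 7.33e-06). Blocked, Col4a1 rose in the other 3 constructs too, by 0.22 in RelA-dTA1 to 0.40 in RelA-dTAD, and Col4a2 in RelA-dTAD (0.27) and RelA-WT (0.18). Col15a1 was called only with the block, lower in RelA-dTA1 (-0.41 ± 0.17, adjusted p = 0.04).

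Among the elastic fibre genes, Fbln1 (chr15:85205949-85286535), which encodes fibulin 1, was the gene whose response differed between EV and RelA-WT without the block. With each replicate of EV and of RelA-WT left out in turn, that difference in log2 change lay between -0.77 and -0.7. It stood at 211.5 and 201.8 CPM in EV at 0 h and at 135.5 and 131.9 CPM at 8 h. In RelA-dTAD it stood at 209.0 and 212.1, then 152.1 and 165.5 CPM. In RelA-WT it stood at 238.5 and 224.0, then 252.1 and 246.8 CPM, and in RelA-dTA1 at 236.9 and 229.4, then 231.1 and 260.9 CPM. The 8 h libraries of EV and RelA-dTAD lay below every other 0 and 8 h library of the 4 constructs. The log2 change was -0.59 ± 0.08 in EV (adjusted p = 1.58e-06), -0.39 ± 0.08 in RelA-dTAD (0.000318), 0.09 ± 0.08 in RelA-dTA1 (0.442) and 0.11 ± 0.08 in RelA-WT (0.34).

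Fbn1 (chr2:125300594-125507993), the fibrillin 1 gene of microfibrils, rose in RelA-WT from 850.3 and 1051 to 1766 and 1523 CPM (0.79 ± 0.25, adjusted p = 0.021), in RelA-dTA1 by 1.00 ± 0.25 (0.00319) and in RelA-dTAD by 0.80 ± 0.25 (0.0109). In EV it stood at 784.0 and 1148, then 1422 and 1364 CPM (0.56 ± 0.25, 0.0662), and was called with the set as a block (0.0322). Without replicate 1 the Fbn1 calls in RelA-WT, RelA-dTA1 and RelA-dTAD were lost (0.351, 0.14 and 0.322). Fbln5 fell in RelA-WT (-0.28 ± 0.09, 0.0198) and RelA-dTA1 (-0.31 ± 0.09, 0.00848), and Fbln2 in RelA-WT (-0.28 ± 0.09, 0.0313), and these calls of the 2 fibulin genes were lost with either library left out. In RelA-dTA1 Fbln2 was called lower with the block alone (-0.20 ± 0.08, adjusted p = 0.0266). Eln and Fbn2 were called in none without the block. Eln had 64.18 and 118.7 CPM in EV at 0 h and 63.81 and 132.2 CPM at 8 h, and 44.1 and 69.22, then 26.55 and 48.17 CPM, in RelA-WT, so each set went down in RelA-WT, and Eln was called lower there with the set as a block (0.00316), as in RelA-dTA1 (1.01e-05) and RelA-dTAD (0.00664). Fbn2 rose in the blocked fit in RelA-dTA1 (0.57 ± 0.23, adjusted p = 0.0479) and RelA-dTAD (0.58 ± 0.24, 0.0391).

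The small leucine-rich proteoglycans bind collagen fibrils and set their thickness. Bgn (chrX:73483602-73495933, biglycan) fell in EV, from 3480 and 3890 to 2721 and 2824 CPM (-0.37 ± 0.11, adjusted p = 0.00872), and stood at 3606 and 3592, then 3889 and 3906 CPM, in RelA-WT (0.11 ± 0.11, 0.503). The Bgn libraries of EV at 8 h lay below those at 0 h, while those of RelA-WT lay above. In RelA-dTAD it stood at 3446 and 3878, then 2775 and 3231 CPM (-0.27 ± 0.11, 0.0567), called with the set as a block (0.000516). The fall in EV was not called without replicate 2 (0.0978). Dcn (decorin) and Lum (lumican) were called in none, with log2 changes from -0.59 for Lum in EV (0.055) to 0.50 for Dcn in RelA-WT (0.594). Blocked by set, Dcn rose in RelA-WT (0.51 ± 0.16, adjusted p = 0.0151).

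Among the genes that modify collagen, lysyl oxidase genes rose most in EV and RelA-dTAD. With the set as a block, Loxl1 and Loxl2 rose in all 4 constructs. The prolyl 4-hydroxylase gene P4ha2 rose in all 4 with or without the block. Loxl2 (chr14:69609068-69695834), a lysyl oxidase, rose in EV from 385.9 and 373.1 to 801.6 and 646.3 CPM (0.97 ± 0.12, adjusted p = 5.03e-07). It rose in RelA-dTAD from 419.9 and 369.4 to 844.1 and 615.7 CPM (0.91 ± 0.12, 1.51e-06) and in RelA-dTA1 by 0.45 ± 0.12 (0.00551). In RelA-WT it stood at 378.6 and 400.4, then 486.8 and 463.4 CPM (0.28 ± 0.12, 0.0836). The 8 h libraries of EV and RelA-dTAD lay above those of RelA-WT and RelA-dTA1. The Loxl2 call in RelA-dTA1 was lost with either library left out (0.0669 to 0.115). Loxl1 rose in EV (0.72 ± 0.23, 0.0119) and RelA-dTAD (0.68 ± 0.23, 0.0188), calls lost with either library left out and under library totals alone. Lox, the founding lysyl oxidase, stood at 3063 and 2053, then 4373 and 3051 CPM, in EV and at 3133 and 2106, then 3030 and 2200 CPM, in RelA-WT. The Lox changes in EV (0.58 ± 0.33) and RelA-dTAD were called only with the set as a block, where the difference of EV from RelA-WT was called too (4.63e-06).

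P4ha2 (chr11:54100095-54131665), a catalytic subunit of prolyl 4-hydroxylase, rose in RelA-WT from 78.29 and 100.4 to 158.5 and 157.1 CPM (0.81 ± 0.12, adjusted p = 9.77e-06) and in RelA-dTA1 from 76.42 and 86.31 to 136.8 and 154.4 CPM (0.84 ± 0.12, 4e-06). In EV it stood at 80.22 and 76.27, then 97.75 and 93.4 CPM (0.33 ± 0.12, 0.0256), and in RelA-dTAD at 82.38 and 81.44, then 106.7 and 112.3 CPM (0.44 ± 0.12, 0.00329). The 8 h libraries lay above the 0 h libraries in EV and RelA-dTAD too, but below those of RelA-WT and RelA-dTA1. P4ha2 had risen by 3 h in RelA-WT (121.1 and 136.4 CPM, 0.53 ± 0.12, 0.00206) and in RelA-dTA1 (106.3 and 122.8 CPM, 0.51 ± 0.12, 0.00319), and the P4ha2 call in EV at 8 h was lost with either library left out and under library totals alone (0.559). In RelA-dTAD it was lost without replicate 2 (0.0928) and under library totals alone (0.133). P4ha1, Plod2 and Serpinh1 were called in none without the block. Blocked by set, P4ha1, another catalytic subunit of prolyl 4-hydroxylase, rose in all 4 constructs, by 0.17 ± 0.06 in EV (adjusted p = 0.0163) to 0.28 ± 0.06 in RelA-dTAD (0.000174), and the lysyl hydroxylase gene Plod2 rose in EV (0.21 ± 0.09, 0.0329). Serpinh1 stood at 1369 and 2112, then 1358 and 1926 CPM, in EV and at 1337 and 2048, then 1348 and 2096 CPM, in RelA-WT, so the sets differed far more than the times.

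At 3 h the 40 genes gave few calls. Tnc and P4ha2 rose in RelA-WT and in RelA-dTA1 (5.0% of the 40 genes, where 16.3% and 14.4% of all genes tested were called). Among all genes 10.5% and 9.58% rose and 5.74% and 4.87% fell, and 0 of the 40 fell. In EV and RelA-dTAD 0 were called, with 4 and 1 at an unadjusted p under 0.05 and 0 by DESeq2, where 3.94% and 2.91% of all genes were. Blocked by set, 8 rose in EV, 9 rose and 3 fell in RelA-WT, 8 rose and 3 fell in RelA-dTA1, and 2 rose in RelA-dTAD, where 16.2%, 30.9%, 30.5% and 12.4% of all genes were called. The 3 h response of EV differed from that of RelA-WT in 0 of the 40 genes, with 1 at an unadjusted p under 0.05 and 0 by DESeq2, where 3.68% of all genes differed. With the block it differed in 4, where 9.07% of all genes did: Thbs1, Thbs2 and Col8a1 were higher and P4ha2 lower.

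Over all 40 genes the 8 h changes of EV were most like those of RelA-dTAD, and those of RelA-WT most like those of RelA-dTA1. Across the 40 genes Pearson's r between the 8 h changes was 0.95 for EV and RelA-dTAD and 0.96 for RelA-WT and RelA-dTA1, against 0.49 for EV and RelA-WT, 0.66 for EV and RelA-dTA1, 0.68 for RelA-WT and RelA-dTAD and 0.82 for RelA-dTA1 and RelA-dTAD. Without Thbs1 and Tnc, a choice made after seeing the data, the values over 38 genes were 0.88, 0.96, 0.45, 0.57, 0.72 and 0.83. These are descriptions across genes, which are not independent replicates, and the compared constructs share no library but share the 2 sets.

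The 7 constructs with 1 library at each time have no replicate check, so genes at least 2-fold higher or lower at 8 h than at 0 h are counted, with no test. RelA-DB had 5 such genes that were higher (Fbn1, Fn1, Thbs1, Tnc and Loxl2), where 10.5% of 15090 genes were, and 0 lower. RelA-dCterm had 2 (Thbs1 and Tnc, background 10%), RelA-TA2_CI had 2 (Col5a3 and Tnc, 4.82%), RelA-TA2_S467A and RelA-TA2_CI_S467A had 3 each (Col5a3, Col18a1 and Tnc, 4.69% and 5.61%), RelA-TA2_CI-dTA1 had 3 (Col5a3, Thbs1 and Tnc, 7.21%) and RelA-TA2_CI_S467A-dTA1 had 4 (Col5a3, Col18a1, Thbs1 and Tnc, 6.2%). None of the 7 had a member at least 2-fold lower, where the shares of all genes were 13.5%, 12.4%, 3.13%, 2.72%, 4.72%, 7.14% and 5.88% in the same order. Tnc was past this fold in all 7.

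Thbs1 went from 1576 to 9566 CPM in RelA-DB and from 2058 to 9352 CPM in RelA-dCterm, beside 1959 to 10250 CPM in EV and 1965 to 2227 CPM in RelA-WT of the same set. In set 2 it went from 1174 to 3445 CPM in RelA-TA2_CI-dTA1 and from 1244 to 3398 CPM in RelA-TA2_CI_S467A-dTA1, levels between those of RelA-WT (1127 to 1139 CPM) and RelA-dTAD (1197 to 5425 CPM). It went from 1205 to 1382 CPM in RelA-TA2_CI, from 1139 to 1133 CPM in RelA-TA2_S467A and from 1164 to 1481 CPM in RelA-TA2_CI_S467A, with RelA-dTA1 at 1162 to 1580 CPM. The constructs whose names carry both a TA2 change and dTA1 thus stood at 3398 and 3445 CPM of Thbs1 at 8 h, and those whose names carry either at 1133 to 1580 CPM.

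Fbln1 went from 202.8 to 127.8 CPM in RelA-DB, from 188.2 to 133.2 CPM in RelA-dCterm, from 226.0 to 168.7 CPM in RelA-TA2_CI-dTA1 and from 182.6 to 165.5 CPM in RelA-TA2_CI_S467A-dTA1. It went up in RelA-TA2_CI (219.9 to 236.2 CPM), RelA-TA2_S467A (219.0 to 260.4 CPM) and RelA-TA2_CI_S467A (200.1 to 246.3 CPM). Col8a1 went from 365.6 to 239.9 CPM in RelA-TA2_CI, from 366.0 to 238.7 CPM in RelA-TA2_S467A and from 381.1 to 253.4 CPM in RelA-TA2_CI_S467A, and from 372.3 to 374.6 CPM in RelA-TA2_CI_S467A-dTA1. It went from 440.1 to 353.5 CPM in RelA-TA2_CI-dTA1, from 459.7 to 376.7 CPM in RelA-DB and from 509.2 to 479.8 CPM in RelA-dCterm. Col8a1 thus went down in RelA-DB, RelA-dCterm and RelA-TA2_CI-dTA1, where Thbs1 went up. Loxl2 reached 902.1 CPM in RelA-DB and 796.0 CPM in RelA-dCterm at 8 h, 646.2 and 613.4 CPM in RelA-TA2_CI-dTA1 and RelA-TA2_CI_S467A-dTA1, and 427.9 to 543.3 CPM in the other 3.

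Over the 40 genes and within a set, r between the 8 h changes of RelA-DB and EV was 0.98 and of RelA-DB and RelA-WT 0.60, and for RelA-dCterm these were 0.95 and 0.54. For RelA-TA2_S467A r was 0.33 with EV and 0.98 with RelA-WT, for RelA-TA2_CI_S467A 0.44 and 0.96, and for RelA-TA2_CI 0.52 and 0.93. For RelA-TA2_CI-dTA1 it was 0.87 with EV, 0.76 with RelA-WT and 0.96 with RelA-dTAD, and for RelA-TA2_CI_S467A-dTA1 0.75, 0.80 and 0.91. Without Thbs1 and Tnc these values were 0.75, 0.83 and 0.94 for the former and 0.54, 0.86 and 0.87 for the latter. RelA-dTAD thus stayed the highest of the 3 for the former, while RelA-dTAD and RelA-WT were nearly equal for the latter. These values rest on 1 library at each time.

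**Figure D5:**
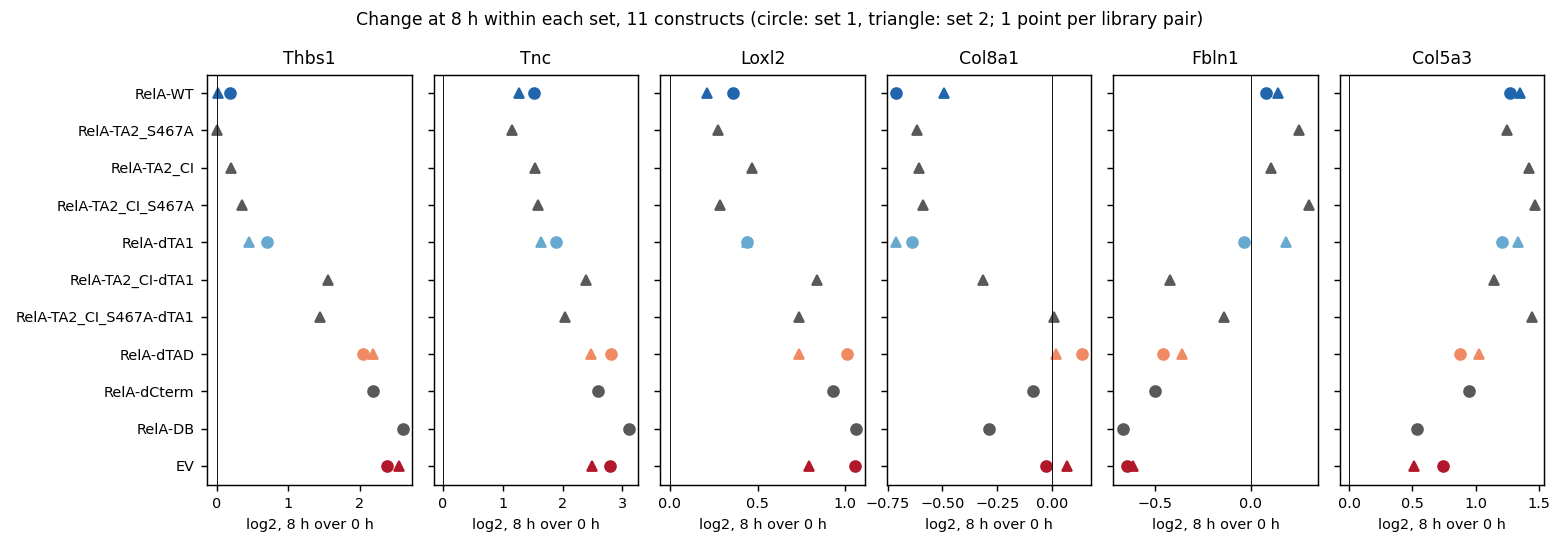
Log2 ratio of the level at 8 h over that at 0 h for 6 matrix genes in the 11 constructs, 1 point per pair of libraries of a set. Circles are set 1 and triangles set 2, and coloured points are the 4 constructs present in both sets. Thbs1 and Tnc lie farthest right in EV, RelA-DB, RelA-dCterm and RelA-dTAD, and Fbln1 lies left of 0 in these.

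Of 47 other matrix genes (laminins, perlecan and further collagens, elastic fibre and proteoglycan genes), 44 were tested, and 5 rose and 9 fell at 8 h in EV while 1 rose and 2 fell in RelA-WT (31.8% and 6.82% called, beside 48.7% and 27.4% of all genes). Lama5 (0.91 ± 0.29, adjusted p = 0.0123) and Hspg2, the gene of perlecan (0.71 ± 0.26, 0.0289), had the largest rises in EV, and Emilin1, an elastic fibre glycoprotein gene (-1.30 ± 0.09, 1.94e-11), and Ecm2 (-1.20 ± 0.47, 0.0381, at 2.9 and 3.29 CPM before TNF) the largest falls. In RelA-WT Hspg2 rose by 0.74 ± 0.27 (0.0402) and Tgfbi and Lama2 fell. Emilin1 went from 358 and 348 to 145 and 133 CPM in EV. The median change of the other matrix genes was -0.185 in EV and -0.149 in RelA-WT. With the set as a block 9 rose and 18 fell in EV, and 6 rose and 12 fell in RelA-WT (61.4% and 40.9%, beside 62.6% and 44.8% of all genes).

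Of 23 other collagen biosynthesis genes, 1 rose and 8 fell in EV, and 3 rose and 3 fell in RelA-WT (with the set as a block, 4 and 10, and 5 and 5). The called shares were 39.1% in EV and 26.1% in RelA-WT, beside 48.7% and 27.4% of all genes, and 60.9% and 43.5% with the block, beside 62.6% and 44.8%. P3h2, a prolyl 3-hydroxylase gene, rose in EV from 11.2 and 8.75 to 30.1 and 27.4 CPM (1.57 ± 0.29, adjusted p = 8.2e-05) and in RelA-WT by 0.85 ± 0.30 (0.0362). P4ha3 and Fkbp14 fell in both, in EV by 0.78 ± 0.14 and 0.76 ± 0.12 on the log2 scale, and Loxl4 rose in RelA-WT by 1.07 ± 0.36 (0.03). Thus P4ha2 and P4ha3, which encode alternative catalytic subunits of the same enzyme, changed in opposite directions in EV and in RelA-WT.

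Of 18 TGF-beta signalling genes, 7 rose and 5 fell at 8 h in EV, and 2 rose and 3 fell in RelA-WT (9 and 5, and 4 and 6, with the set as a block). The called shares were 66.7% in EV and 27.8% in RelA-WT, beside 48.7% and 27.4% of all genes, and 77.8% and 55.6% with the block, beside 62.6% and 44.8%. Ccn2, a connective tissue growth factor gene induced by TGF-beta in fibroblasts, rose in EV from 212 and 117 to 2990 and 2200 CPM (4.02 ± 0.43, adjusted p = 3.55e-08), and its change in RelA-WT was 0.14 ± 0.38 (0.831). Tgif1 rose in EV (1.22 ± 0.10) and RelA-WT (0.57 ± 0.10), and the inhibitory Smad6 fell in both (-2.04 ± 0.21 and -0.64 ± 0.19). Tgfbr3, a TGF-beta co-receptor gene, fell in EV (-1.41 ± 0.13). Skil rose and Ski fell in RelA-WT, by 0.54 in either direction. The 8 h response of EV differed from that of RelA-WT in 6 of these genes (33.3%, beside 17.6% of all genes). It was higher for Skil, Smad3, Ccn2 and Tgif1 and lower for Tgfbr3 and Smad6. In the same contrast 6.82% of the other matrix genes, 4.35% of the other collagen biosynthesis genes and 58.3% of the fibroblast markers differed. With the set as a block, the share of TGF-beta genes was 55.6%, beside 33.5% of all genes. It was then 20.5% for the other matrix genes and 34.8% for the other collagen biosynthesis genes. Of the 12 fibroblast markers, 4 were higher and 5 lower with the block.

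Of 12 fibroblast markers outside the 40 genes, 3 rose and 4 fell in EV at 8 h, among them Twist2 (1.1 ± 0.17), Meox1 (1.09 ± 0.38), Pdgfrb (-1.45 ± 0.08) and Prrx1 (-0.93 ± 0.10), and 0 changed in RelA-WT, with 3 at an unadjusted p under 0.05 and 0 by DESeq2. Blocked by set, 5 rose and 4 fell in EV and 3 rose and 3 fell in RelA-WT. The called shares were thus 58.3% and 0% without the block, beside 48.7% and 27.4% of all genes, and 75% and 50% with it, beside 62.6% and 44.8%. Of the macrophage, endothelial, epithelial and muscle markers that were tested, 0 of 2, 1 of 1 (Kdr), 1 of 3 (Krt18) and 1 of 2 (Des) rose in EV, in that order, where 25.6% of all genes rose. In RelA-WT 0 of them were called in each list, and with the set as a block the macrophage marker Csf1r alone was, as higher. The endothelial list summed to 16.2 to 27.4 CPM in EV at 0 h and 41.3 to 45.2 CPM at 8 h, the epithelial list to 3.32 to 5.30 and 5.50 to 13.5 CPM, and the muscle list to 2.63 to 3.85 and 8.36 to 10.0 CPM. Whether cells of other types were present or had a part in the matrix changes was not tested.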

How the data were processed

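RNA from 75 libraries was sequenced with a stranded mRNA kit, per the labels. The deposited values are raw counts of reads per gene. The submitters' processing notes name cutadapt 1.9.1, STAR, featureCounts 1.5.0, DESeq2 and mm10. How featureCounts treated strand is not given in the sources used here. The 40 libraries of the 4 constructs in both sets were fitted with edgeR 4.0.16 (R 4.3.3; quasi-likelihood, robust), with 1 mean per construct and time, TMM scaling and edgeR's low-count filter, and p-values were adjusted by Benjamini-Hochberg over 13665 genes at a threshold of 0.05. The fit leaves 20 residual degrees of freedom. For constructs with 1 library, genes were counted by the log2 ratio of CPM at 8 h to 0 h, with a small constant added to both. The threshold was 2-fold over 15090 genes, and no test was run. Library totals ran from 4422396 to 22908738, and read counting limits precision most for genes with few reads.

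The replicate number names the set. After the group means were removed, libraries with the same number correlated with each other at 0.411 to 0.641 (190 pairs of groups), so the number pairs the libraries, and calls that a fit with the set as a block changes are given beside the results. Other alternatives were DESeq2 1.42.0, its size factors, library totals alone, no low-count filter, each replicate left out and a 1.5-fold threshold. Leaving a replicate out dropped that construct's libraries of 1 set at all times, and these fits had no block for the set. Motifs were searched on both strands of RefSeq promoter windows. The 40 genes and all other lists were chosen with earlier results of these data known. Values of single libraries, at 0 and 8 h and in EV and RelA-WT at least, are given for Col1a1, Col1a2, Col3a1, Fn1, Sparc and Serpinh1 and, in each role group, for the 2 members with the largest change at 8 h among those called in any of the 4 constructs. Of each other list, the 2 largest rises and the 2 largest falls called in EV and in RelA-WT are named. Values of Col5a1, Thbs2, Lox, Loxl1, Eln and other genes outside this rule were added after their results were seen. The scripts were tested on simulated counts. The result of 1 other marker list is not reported here.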

Additional observations from a re-analysis of the deposited data

Results flagged for a closer look

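The change after 8 h of TNF differed between EV and RelA-WT cells in 7 matrix genes, by a test of the difference itself in edgeR's quasi-likelihood fit. That is 17.5% of the 40 genes, where 17.6% of all genes tested differed. With the set as a block, 45.0% of the 40 genes differed, where 33.5% of all genes did. Without it, the change was higher in EV by log2 2.36 for Thbs1, 1.28 for Tnc, 0.68 for Loxl2 and 0.67 for Col8a1. It differed by -0.49 for P4ha2, -0.49 for Bgn and -0.70 for Fbln1. It also differed between RelA-dTAD and RelA-WT, by 1.26 for Tnc, 0.62 for Loxl2, 0.71 for Col8a1 and -0.49 for Fbln1. With each replicate of the compared constructs left out in turn, Fbln1 alone of the 7 kept its call every time, and of the 4 calls for RelA-dTAD 0 did. The fits with a replicate left out had no block for the set. Both sets of contrasts share the RelA-WT libraries.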

How the results depend on the processing

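The set as a replicate block, which uses the pairing of the libraries, raised most counts of members called. At 8 h, 16 rose and 6 fell in EV, 13 and 7 in RelA-WT, 14 and 9 in RelA-dTA1, and 16 and 6 in RelA-dTAD. At 3 h, 8 rose in EV, 9 rose and 3 fell in RelA-WT, 8 and 3 in RelA-dTA1, and 2 rose in RelA-dTAD. The 8 h response was higher than in RelA-WT for 12 genes and lower for 6 in EV, and higher for 8 and lower for 3 in RelA-dTAD. At 0 h, 1 gene was higher in EV. Without the low-count filter, 14 rose and 5 fell at 8 h in EV, 8 rose in RelA-WT, 11 rose in RelA-dTA1, and 16 rose and 5 fell in RelA-dTAD. At 3 h, 1 rose in EV, 5 rose and 2 fell in RelA-WT, 5 and 1 in RelA-dTA1, and 1 rose in RelA-dTAD. The 8 h response then differed from RelA-WT for 7 higher and 5 lower in EV and 5 and 0 in RelA-dTAD, and at 0 h 1 gene was higher in EV and 1 in RelA-dTA1. Under library totals alone, 4 rose and 11 fell at 8 h in EV and 6 and 8 in RelA-dTAD, 1 rose at 3 h in RelA-dTA1, and 1 had a higher response in RelA-dTAD than in RelA-WT. The cause was not tested. Of the 55 single-gene calls, 55 kept their call with the block, DESeq2 or its size factors, 49 without the filter and 43 under library totals, and 0 reversed.

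With 1 replicate left out, the counts at 8 h were 3 to 5 higher and 2 to 3 lower in EV, 2 to 3 and 0 to 2 in RelA-WT, 4 to 4 and 1 to 2 in RelA-dTA1, and 5 to 6 and 2 to 2 in RelA-dTAD. At 3 h 0 to 1 rose in RelA-WT and in RelA-dTA1. The response differed from RelA-WT for 0 to 1 higher and 1 to 2 lower in EV, and 0 to 1 and 0 to 1 in RelA-dTAD. The lone sample of a group is then assumed to vary like the other groups, and these fits had no block for the set. For constructs with 1 library, a 1.5-fold threshold gave 9 higher and 2 lower in RelA-DB, 5 and 4 in RelA-TA2_CI, 7 and 2 in RelA-TA2_CI-dTA1, 6 and 2 in RelA-TA2_CI_S467A, 7 higher in RelA-TA2_CI_S467A-dTA1, 5 and 3 in RelA-TA2_S467A and 5 higher in RelA-dCterm. Library totals alone gave 2 and 1 in RelA-DB, 1 lower in RelA-TA2_CI and 1 lower in RelA-TA2_CI-dTA1. Depth limits mainly Col15a1, with 30 reads in its lowest library.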
